A study of Mus musculus with 3 samples.

Results

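Fas, the cell-surface receptor that starts the extrinsic route to cell death, was followed together with 8 genes that act after it or beside it in 3 sorted populations of the mouse embryonic aorta-gonad-mesonephros (AGM) region. These 9 genes were chosen by symbol from the 47007 genes of the table. Fas was picked because it was the 1 nuclear protein-coding gene, of 6214 at 10 TPM or more in the higher library, that stood at least 4-fold higher in PDGFRβ-S cells than in DN cells. The other 8 were taken as its pathway and as the Bcl2 family around it. They were the adaptor Fadd, the initiator caspase gene Casp8, the survival genes Bcl2, Bcl2l1 and Mcl1, the pore-forming Bax, and the death-promoting Bbc3 and Pmaip1, which encode PUMA and NOXA.

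Bulk RNA-seq was measured in cells of wild-type C57BL/6J embryos at embryonic day 11, all sorted as negative for CD31, CD45 and cKit, with embryos of a litter pooled in a sample. DP cells carried NG2 and PDGFRβ and are labelled vascular smooth muscle cells, PDGFRβ-S cells carried PDGFRβ but no NG2 and are labelled sub-vSMCs, and DN cells carried neither and are labelled stroma, although the text of the study describes their PDGFRβ as low or absent. Each population gave 1 library, so no p-value is given and every difference describes these libraries. Levels are in TPM, a gene's share of reads after division by gene length, and the intervals beside them are 95% intervals of counting error alone.

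In the extrinsic route, the ligand FasL gathers Fas receptors on the cell surface, Fas draws in FADD, and FADD draws in caspase-8, which then cuts the effector caspases. In the intrinsic route, BAX opens the outer mitochondrial membrane unless BCL2, BCL-XL (from Bcl2l1) or MCL1 hold it back, and BH3-only proteins such as PUMA and NOXA free it from that hold. Fas, Bax, Bbc3 and Pmaip1 are textbook targets of p53. Developing mesenchyme is shaped in part by cell death, and Fas is also present on many cells that do not die.

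The recovered reads on genes numbered 9718564 for DP, 8620246 for PDGFRβ-S and 10509327 for DN. The libraries differed in composition. Genes of the mitochondrial genome made up 10.5% of DP TPM, 25.5% of PDGFRβ-S TPM and 24.4% of DN TPM, and ribosomal RNA with Gm42418 took 12.3%, 0.624% and 1.14%. Among 5109 genes that reached 10 TPM in every library, ratios had a median of 0.06 on the log2 scale for DP against DN, -0.20 for PDGFRβ-S against DN and 0.23 for DP against PDGFRβ-S, and these shifts are the level against which small differences have to be read. Pdgfrb was at 35.1 TPM in DP, against 14.3 in PDGFRβ-S and 7.32 in DN, and Cspg4, which encodes NG2, at 10.5, 0.485 and 1.31. The 4 smooth muscle markers summed to 7492 TPM in DP, against 201 in PDGFRβ-S and 98.7 in DN. DN also held RNA of other cell types, with 4 of 4 sympathetic neuroblast markers at 0 in DP and in PDGFRβ-S and summing to 175 TPM in DN, and with skeletal muscle markers at 4.83, 3.68 and 60.3 TPM. Primitive erythroid markers summed to 518 TPM in DP, against 13978 in PDGFRβ-S and 12566 in DN. The endothelial markers Cdh5 and Tie1 were at 0 in every library (sums of 1.67, 1.55 and 1.16 TPM over 4 genes), and of the blood and macrophage markers Ptprc, Adgre1 and Cd3e were at 0 (sums of 2.68, 3.70 and 4.00 TPM over 7 genes). The endothelial sums came mostly from Kdr, at 1.58, 1.53 and 1.16 TPM, and the blood sums from Csf1r, at 1.81, 2.44 and 2.74 TPM. Whether RNA of these other cells had a part in the differences described here was not tested, and in bulk samples fewer cells of a type cannot be told apart from less RNA per cell.

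Fas (chromosome 19, 34290659 to 34327770, plus strand, mm10) was at 16.5 TPM in DP (13.6 to 19.8, 115 reads), against 14.0 in PDGFRβ-S (11.5 to 16.8, 116 reads) and 1.35 for DN (0.699 to 2.36, 12 reads). Both PDGFRβ+ libraries were thus high and DN was low, with no overlap of the counting intervals. By reads, Fas was 12.2-fold higher in DP than in DN (interval 6.72 to 24.3) and 10.3-fold higher in PDGFRβ-S than in DN (interval 5.69 to 20.6). Because Fas was chosen for the PDGFRβ-S against DN difference, that value is a description, and the DP against DN value shares the same DN library. Between the PDGFRβ+ libraries, DP was 1.18-fold higher than PDGFRβ-S, with an interval of 0.905 to 1.54 that spans no difference, and 3 of the 4 scalings of the libraries tried gave it the opposite sign (log2 ratios of -0.14, -0.17 and -0.01, and 0.03 in the other, where the deposited values gave 0.23).

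On the log2((TPM + 1)/(TPM + 1)) scale the Fas ratio was 2.67 for PDGFRβ-S against DN, where the limit of the choice was 2. Just outside it stood Gm11060 at 1.94, Crabp1, which binds retinoic acid in the cytoplasm, at 1.89, S100a6 at 1.82, Alx1, a homeobox gene of mesenchyme, at 1.70 and Tagln, the smooth muscle gene transgelin, at 1.68. No other nuclear protein-coding gene (0.0161% with Fas) was inside the limit, whereas 0.312% of all 7376 genes at that level, 23 in number, were.

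**Figure D1:**
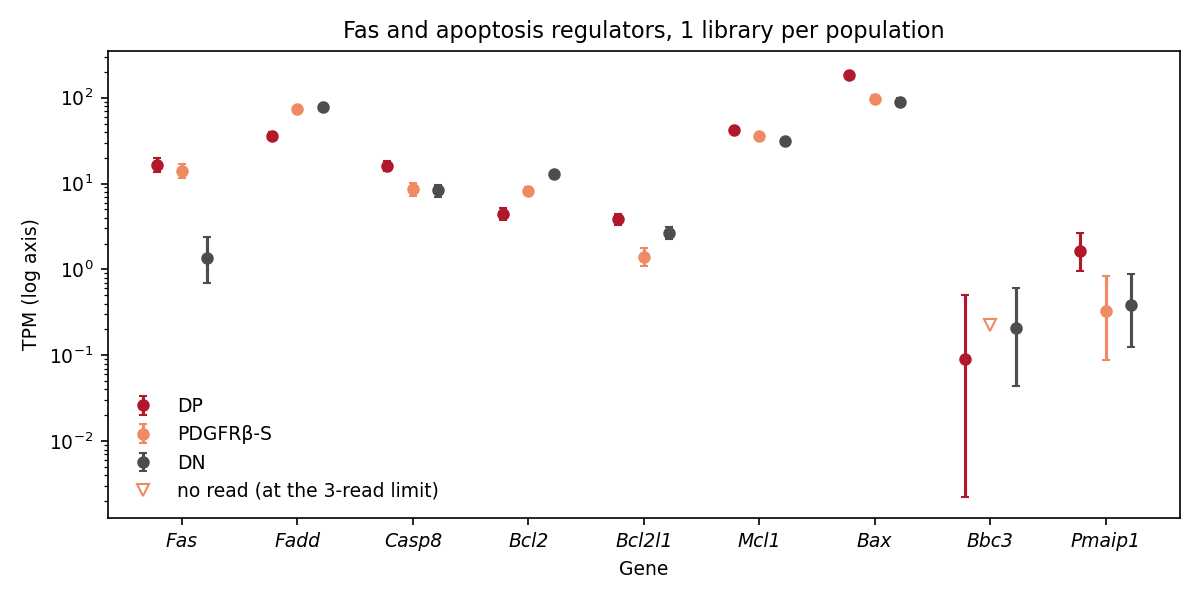
TPM (log axis) of the 9 genes in the DP, PDGFRβ-S and DN libraries, with 95% Poisson intervals of the reads behind each value, 1 library per population. Fas sat at 16.5 and 14.0 TPM in DP and PDGFRβ-S and at 1.35 TPM in DN, Bax and Casp8 were highest in DP, Fadd and Bcl2 were lowest in DP, and Bbc3 had no read in PDGFRβ-S (open triangle, drawn at the 3-read limit).

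The bases before the start of transcription are shown for the 4 members that were at least 2-fold apart in some comparison with 5 TPM or more in the higher of the libraries compared. Pmaip1 and Bcl2l1 also passed 2-fold in DP against PDGFRβ-S but stayed under that level. They were read from RefSeq promoter entries (GRCm38.p6), which held 8 of the 9 members, all but Pmaip1. The windows are Fas at chr19:34290409-34290658 (plus strand), Bax at chr7:45466899-45467148 (minus strand), Fadd at chr7:144582464-144582691 (minus strand) and Bcl2 at chr1:106714291-106714540 (minus strand), written 5′ to 3′ in the direction of transcription. That of Fadd is shorter because the deposited table starts the gene further upstream than RefSeq does. Capitals mark matches, on either strand, to the AP-1 motif TGAGTCA, the GC box GGGCGG, the E-box CACGTG, the CCAAT box, the TATA box (TATAAA), the p53 half-site or the CArG box.
Fas: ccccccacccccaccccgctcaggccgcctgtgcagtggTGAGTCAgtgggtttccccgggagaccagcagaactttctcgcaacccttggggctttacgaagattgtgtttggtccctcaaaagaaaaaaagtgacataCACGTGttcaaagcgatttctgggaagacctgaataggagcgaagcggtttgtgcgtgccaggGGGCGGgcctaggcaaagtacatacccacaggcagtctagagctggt
Bax: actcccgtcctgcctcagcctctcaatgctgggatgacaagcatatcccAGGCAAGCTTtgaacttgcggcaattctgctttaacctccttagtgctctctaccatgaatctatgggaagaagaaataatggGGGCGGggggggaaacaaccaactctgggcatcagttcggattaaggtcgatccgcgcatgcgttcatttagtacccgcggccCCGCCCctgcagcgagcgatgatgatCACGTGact
Fadd: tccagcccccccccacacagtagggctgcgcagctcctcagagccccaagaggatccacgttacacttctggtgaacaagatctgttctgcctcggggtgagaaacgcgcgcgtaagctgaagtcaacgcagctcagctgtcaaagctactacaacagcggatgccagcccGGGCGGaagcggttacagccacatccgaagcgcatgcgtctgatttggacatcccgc
Bcl2: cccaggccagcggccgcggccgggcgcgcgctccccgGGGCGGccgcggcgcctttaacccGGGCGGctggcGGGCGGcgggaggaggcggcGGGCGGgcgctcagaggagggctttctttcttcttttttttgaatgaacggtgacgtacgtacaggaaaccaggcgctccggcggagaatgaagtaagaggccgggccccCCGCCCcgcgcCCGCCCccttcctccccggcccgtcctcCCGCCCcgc
The Fas window held 1 AP-1 match, 1 GC box and 1 E-box, beginning 211, 47 and 110 bases before the start. The Bax window held 2 GC boxes, 1 E-box and 1 p53 half-site, that of Fadd 1 GC box, and that of Bcl2 7 GC boxes. No window held a CCAAT box, a TATA box or a CArG box. Among 32851 RefSeq promoter windows of 250 bases, 4.46% held the AP-1 motif, 32.7% the GC box, 6.02% the E-box, 33.8% the CCAAT box, 12.4% the TATA box, 7.13% the p53 half-site and 1.47% the CArG box. The motifs do not overlap in these windows. A match describes letters only.

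The protein-coding gene next to Fas at lower coordinates was Acta2, smooth muscle actin, which lies 35.3 kb away on the opposite strand. Acta2 was at 6256 TPM in DP, against 148 in PDGFRβ-S and 84.1 in DN, so it differed 42.2-fold (39.9 to 44.8) between DP and PDGFRβ-S, where Fas differed 1.18-fold. On the other side, 146 kb away, Ch25h, which makes 25-hydroxycholesterol, was at 8.04, 2.89 and 6.47 TPM. Neither neighbour had the near-equal levels of Fas in both PDGFRβ+ libraries. Acta2 did share the direction of Fas against DN, 74.4-fold higher (69.1 to 80.1) in DP and 1.76-fold higher (1.61 to 1.93) in PDGFRβ-S. Ch25h was lower in PDGFRβ-S than in DN. Inside Fas the table lists only Gm27818, at 0 in every library.

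The protein-coding genes whose pair of ratios (DP against DN and PDGFRβ-S against DN) lay nearest to that of Fas were sought among 9438 genes with 5 TPM or more in some library, over 3 libraries. Fas had log2 ratios of 2.90 and 2.67. Gm11096 was nearest, at a distance of 0.19, but rested on 1 read in DP, against 1 in PDGFRβ-S and 0 in DN. Guca1a (18, 15 and 0 reads), Adh1, an alcohol dehydrogenase (13.6 TPM in DP, against 5.94 in PDGFRβ-S and 0.519 in DN), and Ufsp1 (9.72, 5.44 and 0.587 TPM) were among the 5 nearest, at distances of 0.48, 0.60 and 0.66. With 3 libraries such likeness is a description.

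**Figure D2:**
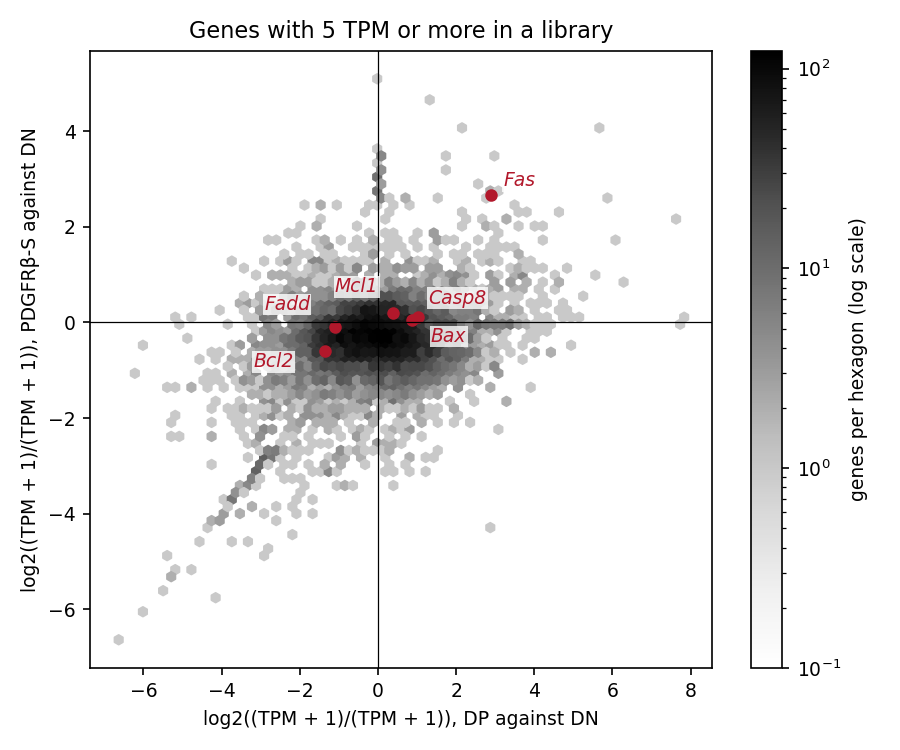
Log2((TPM + 1)/(TPM + 1)) of DP against DN (x axis) and of PDGFRβ-S against DN (y axis) for all genes with 5 TPM or more in a library, as hexagons shaded by the number of genes, with 6 of the 9 genes marked. Fas lies at 2.90 and 2.67 and apart from the other 5, which are spread along the x axis and lie near 0 on the y axis, apart from Bcl2 at -0.59. The axes share the DN library.

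Against DN, Fas was the one member at least 2-fold apart in PDGFRβ-S. Of all genes whose higher library reached 5 TPM, 2.23% reached 2-fold higher levels in PDGFRβ-S and 10.9% reached 2-fold lower levels. Of the 9 members 6 had that level, and 1 of them, Fas, was higher and none was lower, a count that the choice of Fas fixes. The next largest difference was that of Bcl2l1, under the level limit, which had 1.40 TPM in PDGFRβ-S, against 2.64 TPM in DN.

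DP differed from DN in more of the members. Over all genes at that level 16.9% reached a 2-fold excess in DP and 19.1% a 2-fold deficit. Fas and Bax were higher in DP, and Fadd and Bcl2 lower, 2 and 2 of the 6 members at that level. Between DP and PDGFRβ-S, where the shares over all genes were 28.3% higher and 12.5% lower, Fadd was lower in DP and no member was higher.

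**Figure D3:**
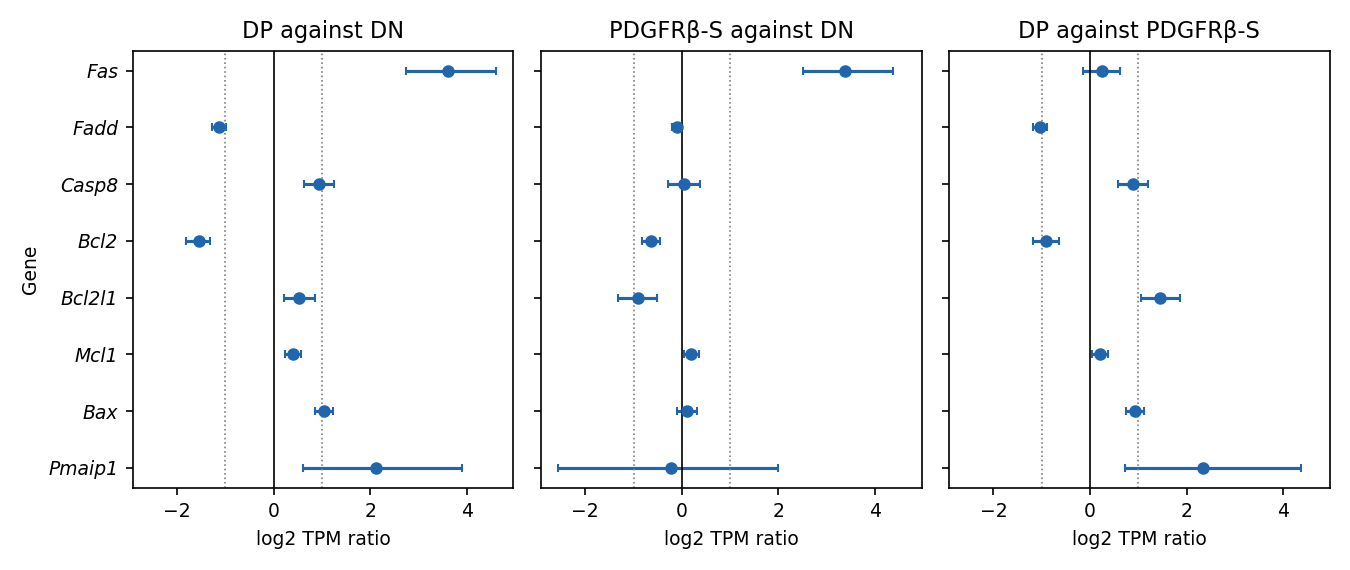
Log2 TPM ratios, without a pseudocount, of 8 members in the 3 comparisons, with exact 95% binomial intervals of the reads. Dotted lines mark a 2-fold difference. Fas lies beyond it in DP and in PDGFRβ-S against DN and near 0 in DP against PDGFRβ-S, while Fadd and Bcl2 lie below 0 and Bax and Casp8 above 0 in both comparisons of DP. Bbc3, with 4 reads in all, is left out.

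Fadd and Casp8, the proteins that join Fas at the membrane, went opposite ways in DP. Fadd (chromosome 7, 144577318 to 144582463, minus strand) was at 36.2 TPM in DP (33.3 to 39.4), against 73.9 in PDGFRβ-S (69.9 to 77.9) and 78.8 for DN (74.9 to 82.9). Its level in DP was 2.18-fold lower (1.97 to 2.40) than in DN and 2.04-fold lower (1.84 to 2.26) than in PDGFRβ-S. As deposited, PDGFRβ-S and DN did not differ beyond counting error (ratio 0.937, 0.870 to 1.01). The log2 ratio of Fadd between these libraries, -0.09, became 0.06 with quantile normalization. With the median ratio of well-detected genes set to 1 it was 0.10. Casp8 (chromosome 1, 58795374 to 58847503, plus strand) was at 15.9 TPM in DP (13.9 to 18.1), against 8.58 in PDGFRβ-S (7.25 to 10.1) and 8.30 for DN (7.04 to 9.73). Casp8 was 1.92-fold higher (1.56 to 2.37) in DP than in DN, short of the 2-fold limit, and within counting error between PDGFRβ-S and DN (ratio 1.03, 0.818 to 1.30). An antisense gene, Faddos, overlaps Fadd and was at 3.93 TPM in DP, against 1.65 in PDGFRβ-S and 3.28 in DN. Gm37760, within Casp8 on the same strand, was at 0.135, 0.734 and 0.211 TPM. Without strand information the reads of Faddos cannot be told apart from those of Fadd where they overlap.

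The level of Fas relative to that of its partners varied between the libraries. Fadd was 2.19 times Fas in TPM in DP, 5.29 times in PDGFRβ-S and 58.3 times in DN, and Casp8 was 0.965, 0.614 and 6.14 times Fas. Per merged exon length Fadd was 2.51, 6.05 and 66.7 times Fas, and Casp8 was 1.42, 0.903 and 9.03 times Fas, so which of Casp8 and Fas was higher in DP depends on the length used. Cflar, which encodes the caspase-8 inhibitor cFLIP, was 3.36 times Casp8 in DP, 8.44 times in PDGFRβ-S and 7.60 times in DN, at 53.6, 72.4 and 63.1 TPM.

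The survival genes did not move together. Bcl2 (chromosome 1, 106538178 to 106714274, minus strand) was at 4.43 TPM in DP (3.79 to 5.15), against 8.30 in PDGFRβ-S (7.49 to 9.18) and 13.0 for DN (12.01 to 14.04), and the counting intervals of the 3 libraries did not overlap. It was 2.93-fold lower (2.47 to 3.49) in DP than in DN and 1.57-fold lower (1.38 to 1.78) in PDGFRβ-S than in DN. The log2 ratio of Bcl2 in PDGFRβ-S against DN was -0.59, beside a median of -0.20 for well-detected genes. Under the 4 scalings of the libraries that ratio was -0.53, -0.57, -0.41 and, with quantile normalization, -0.22. With a pseudocount of 5 TPM the DP against DN difference stayed short of 2-fold (log2 -0.93). The antisense gene D630008O14Rik overlaps it and was at 3.91, 5.64 and 5.86 TPM, and the same limit of unstranded reads applies. Mcl1 (chromosome 3, 95658788 to 95663176, plus strand), the most abundant of the survival genes, was at 41.6 TPM in DP (38.4 to 44.9), against 36.1 in PDGFRβ-S (33.4 to 38.9) and 31.5 for DN (29.1 to 34.1). Its log2 ratio of 0.20 in DP against PDGFRβ-S was below the median of well-detected genes of 0.23 and took the other sign under 4 scalings of the libraries.

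Bcl2l1 (chromosome 2, 152780668 to 152831728, minus strand) was at 3.82 TPM in DP (3.28 to 4.43), against 1.40 in PDGFRβ-S (1.11 to 1.75) and 2.64 for DN (2.24 to 3.09). By reads it was 2.72-fold higher (2.07 to 3.61) in DP than in PDGFRβ-S, and 1.88-fold lower (1.42 to 2.51) in PDGFRβ-S than in DN. It stayed under the limit of 5 TPM because its reads were divided by 11905 bases, the sum of all its distinct exons, while its exons merge to 4586 bases. Per merged exon length Bcl2l1 was at 9.10 TPM in DP, against 3.45 in PDGFRβ-S and 6.45 in DN, and it then passed the 2-fold limit in DP against PDGFRβ-S.

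Bax (chromosome 7, 45461695 to 45466898, minus strand) was at 184 TPM in DP (170 to 199), against 96.6 in PDGFRβ-S (87.2 to 107) and 89.2 for DN (80.5 to 98.7). It was 2.06-fold higher (1.81 to 2.35) in DP than in DN and 1.91-fold higher (1.68 to 2.17) in DP than in PDGFRβ-S, while PDGFRβ-S and DN were within counting error (ratio 1.08, 0.937 to 1.25). The DP against DN difference lay just past the 2-fold limit, and 5 of the alternatives tried took it below. Pmaip1 was at 1.66 TPM in DP (17 reads), against 0.328 in PDGFRβ-S (4 reads) and 0.384 for DN (5 reads), which by reads is 4.33-fold higher (1.53 to 15.0) in DP than in DN. Bbc3 (chromosome 7, 16309616 to 16318205, plus strand) had 1 read in DP, against 0 in PDGFRβ-S and 3 in DN, at or under the limit of 0.268 TPM in DP, against 0.225 in PDGFRβ-S and 0.211 in DN that 3 reads set. No fold is given for it.

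Bax was highest and Bcl2 lowest in DP, and the ratio of Bax to Bcl2 was 41.5 in DP, against 11.6 in PDGFRβ-S and 6.87 in DN, so it was 6.05-fold higher in DP and 1.69-fold higher in PDGFRβ-S than in DN. This ratio is taken within a library, so a scaling that multiplies each library by 1 factor leaves it unchanged. Quantile normalization is not of that kind. It took the DP against DN log2 ratio of Bax from 1.04 to 0.82 and that of Bcl2 from -1.37 to -1.20. The size of the Bax to Bcl2 ratio also depends on exon length. Per merged exon length it was 20.9, 5.86 and 3.46. Bax to Mcl1 varied less, at 4.43, 2.68 and 2.83.

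Levels can be ordered between genes only per length, and the merged exon length was used for this. In DP the order was Bax at 93.2 TPM, Mcl1 44.96, Fadd 33.2, Casp8 18.8, Fas 13.2, Bcl2l1 9.10 and Bcl2 4.45, with no overlap of counting intervals between neighbours. In PDGFRβ-S Fadd led at 70.01 TPM, followed by Bax 50.5, Mcl1 40.3, Fas 11.6, Casp8 10.4, Bcl2 8.62 and Bcl2l1 3.45, and the intervals of Fas and Casp8 and those of Casp8 and Bcl2 overlapped. In DN Fadd was at 74.0 TPM, Bax 46.2, Mcl1 34.9, Bcl2 13.4, Casp8 10.02, Bcl2l1 6.45 and Fas 1.11, with no overlap between neighbours. Of these 7 genes, 4 thus stood above Fas in the DP library, 3 in that of PDGFRβ-S and 6 in that of DN, and Fadd was the highest in both NG2- libraries.

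The wider pathway was described with 71 further genes in 10 lists. In PDGFRβ-S against DN, 0 of the 40 whose higher library reached 5 TPM were at least 2-fold higher and 1, Cdkn1a, was lower, beside 2.23% and 10.9% of all genes. In DP against DN, 9 of 45 were higher and 9 lower, beside 16.9% and 19.1% of all genes. In DP against PDGFRβ-S, 16 of 43 were higher and 1 lower, beside 28.3% and 12.5%. The median log2 ratio of the 55 with a mean of 1 TPM or more was -0.03, -0.44 and 0.28 in these comparisons, and that of all 15885 genes at this level -0.13, -0.30 and 0.13.

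In PDGFRβ-S against DN, 5 of the 8 death receptors had the level to be counted. Only Fas was at least 2-fold apart, beside 2.23% higher and 10.9% lower of all genes. The choice of Fas fixes its place in this count, and no other receptor at 10 TPM or more could reach 4-fold higher. Tnfrsf1a, the TNF receptor, was at 21.3 TPM in DP, against 6.86 in PDGFRβ-S and 6.31 in DN, so it was 3.37-fold higher (2.72 to 4.21) in DP than in DN and 1.09-fold (0.835 to 1.41) in PDGFRβ-S against DN. Tnfrsf10b, the mouse TRAIL receptor, was the most abundant at 165, 256 and 294 TPM. Tnfrsf21, death receptor 6, was at 4.63, 6.22 and 11.9 TPM and over 2-fold lower in DP than in DN. The ligands gave a like contrast between genes. Fasl, the ligand of Fas, and Tnf and Lta had no read in any library, which in DP allows up to 0.331, 0.255 and 0.561 TPM, whereas Tnfsf10, which encodes TRAIL, was at 18.2 TPM in DP, against 29.1 in PDGFRβ-S and 25.7 in DN.

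Among adaptors and modulators, Tradd, the adaptor of the TNF receptor, was at 7.49 TPM in DP (78 reads), against 0.242 in PDGFRβ-S (3 reads) and 0.679 for DN (9 reads). Daxx, a nuclear protein first found as a Fas partner, was at 12.4, 3.37 and 3.40 TPM, 3.64-fold higher (2.89 to 4.62) in DP than in DN. Faf1, a Fas-associated factor, was at 39.5, 16.7 and 25.7 TPM and Traf2 at 5.34, 1.58 and 3.11 TPM, both over 2-fold higher in DP than in PDGFRβ-S and not than in DN. Of the 12 genes of that list 10 had the level to be counted in DP against DN, and of these Tradd and Daxx were higher and Fadd was lower, beside 16.9% and 19.1% of all genes.

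In the Bcl2 family, Bok, a relative of Bax, was at 20.6 TPM in DP, against 10.1 in PDGFRβ-S and 9.53 in DN, 2.16-fold higher (1.78 to 2.63) in DP than in DN, while Bak1 was at 0.529, 0.543 and 0.416 TPM. Of the BH3-only genes Bad was at 29.8, 14.4 and 10.6 TPM and Bcl2l11, which encodes BIM, at 1.93, 3.88 and 5.60 TPM, so the first was 2.80-fold higher (2.35 to 3.35) and the second 2.90-fold lower (2.36 to 3.59) in DP than in DN.

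Among 9 genes for caspases and mitochondrial death proteins, 2 were at least 2-fold higher and 1 lower in DP against DN. The shares over all genes were 16.9% and 19.1%. In DP against PDGFRβ-S, 5 of the 9 were higher and 0 lower, beside 28.3% and 12.5% of all genes. Among these 5, Casp9, the initiator of the mitochondrial route, was at 6.61 TPM in DP, against 2.06 in PDGFRβ-S and 3.21 in DN. Aifm1, which encodes the apoptosis-inducing factor, was at 46.1, 9.09 and 17.7 TPM, and Endog, a mitochondrial nuclease, at 74.4, 29.2 and 26.9 TPM. Apaf1, which assembles caspase-9 in the apoptosome, went the other way at 3.04, 5.32 and 7.50 TPM. Cycs, cytochrome c, was the most abundant at 192, 229 and 241 TPM, a value that near-identical copies make uncertain. Of the caspase inhibitors Xiap was at 9.96, 19.5 and 25.02 TPM and Birc2 at 7.57, 11.3 and 21.4 TPM, 2.51-fold (2.26 to 2.80) and 2.83-fold (2.45 to 3.28) lower in DP than in DN. Htra2, which antagonises them, was at 14.1, 6.11 and 8.97 TPM, and Diablo was the most abundant of that list at 29.9, 18.97 and 19.4 TPM. Bad, Bak1, Casp9, Endog, Htra2 and Diablo each overlap another protein-coding gene, as do Csf1r, Polk and Tagln among other genes given here. The limit of unstranded reads holds for all of these too.

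**Figure D4:**
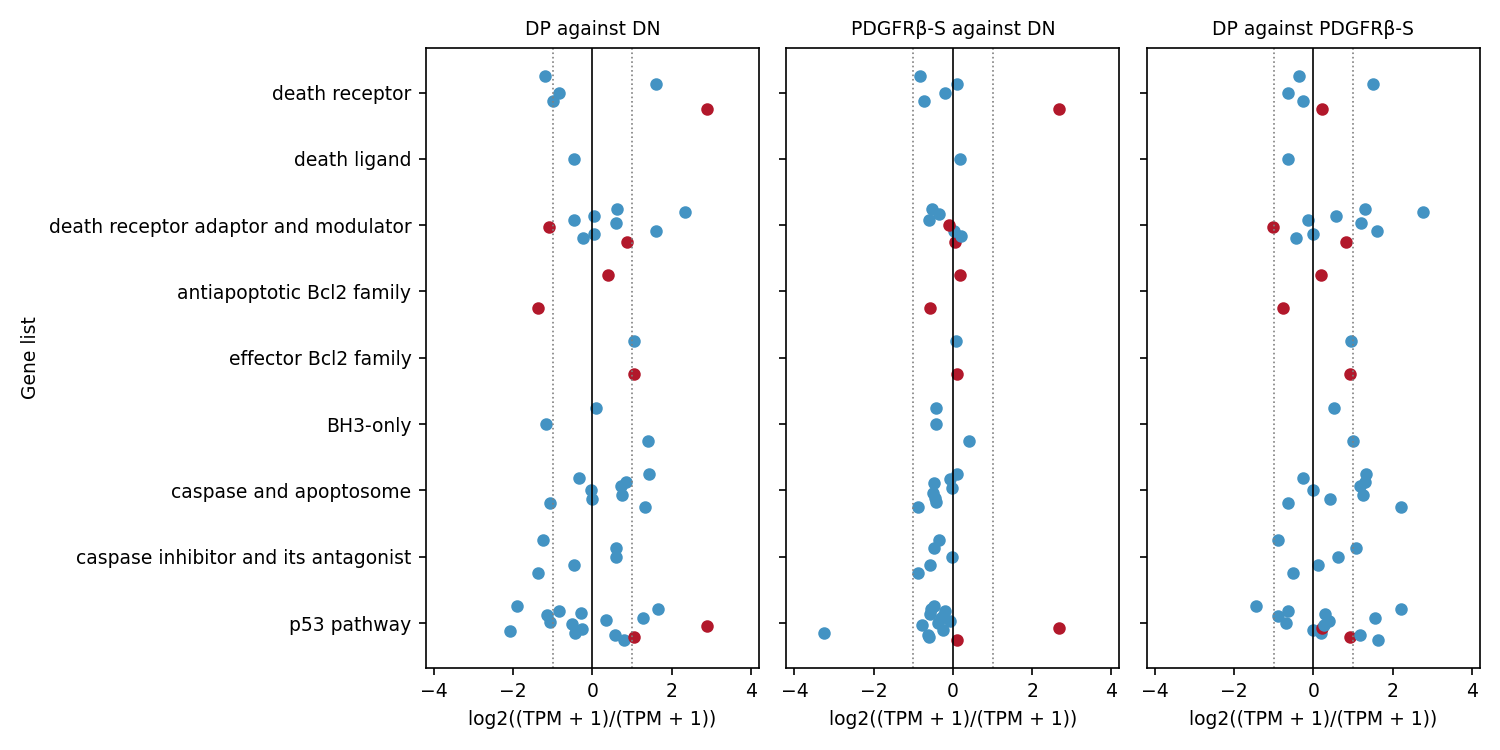
Log2((TPM + 1)/(TPM + 1)) of the genes that reached 5 TPM in the higher library of each comparison, by gene list (rows), with members of the group of 9 in red and the other genes in blue. Dotted lines mark a 2-fold difference. In PDGFRβ-S against DN, Fas at 2.67 and Cdkn1a at -3.25 are the only genes outside these lines, while in the comparisons of DP genes lie on both sides.

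Genes of the p53 pathway were mixed. Trp53 itself, which encodes p53, was at 90.8 TPM in DP, against 18.9 in PDGFRβ-S and 28.1 in DN, 3.23-fold higher (3.00 to 3.48) in DP than in DN and 1.48-fold lower (1.34 to 1.64) in PDGFRβ-S than in DN. Plk2 was at 74.6, 24.5 and 30.5 TPM. Cdkn1a, the p53 target that halts the cell cycle, was at 1.26 TPM in DP (15 reads), against 0 in PDGFRβ-S and 8.52 for DN (129 reads), so it was at least 40.3-fold lower in PDGFRβ-S than in DN by the 3-read limit and 6.76-fold lower (3.95 to 12.4) in DP than in DN. Trp53inp1 was at 4.85, 15.0 and 21.03 TPM, Mdm4, an inhibitor of p53, at 6.33, 10.9 and 14.4, and Polk at 3.38, 7.08 and 8.65, and these 3 were over 2-fold lower in DP relative to DN. Aen and Btg2 were 4.04-fold (3.26 to 5.03) and 2.53-fold (1.83 to 3.53) higher in DP than in PDGFRβ-S. In PDGFRβ-S against DN, 15 genes of this list had the level to be counted. Fas was at least 2-fold higher and Cdkn1a lower, beside 2.23% and 10.9% of all genes. The choice of Fas fixes its place in this count. Of the genes for necroptosis, Ripk3, its kinase, was at 39.2, 25.9 and 19.3 TPM, and Mlkl, which forms the pore, and Zbp1 had no read in any library.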

How the data were processed

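The 3 libraries of sorted cells, 1 per population, were analysed. The authors deposited TPM, read shares per gene length that add up to 1000000 in each library, for 47069 Ensembl genes. The submitters' processing notes name TopHat2 2.0.10 and the mm10 build. The study's methods describe Cufflinks TPM of RefSeq transcripts and, apart from these, reads counted with summarizeOverlaps over a GENCODE annotation. The table holds Ensembl genes, and which route made it is not stated. A second sheet, with 4 columns for 2 genes whose names match no sample for certain, was left out.

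TPM of symbols on several rows (53) were summed. Reads were recovered because TPM times a gene length gave whole numbers once divided by a constant of the library. Of 9346 genes with 50 to 5000 reads, 73.3% came out whole (within 0.005 reads) with the summed length of the distinct exons of GENCODE M21 transcripts and 99.5% with the nearest length that did, against 0.467% with constants shifted by 3%. The deposited TPM thus divide by lengths that count overlapping exons repeatedly, which lowers genes with many transcripts. Ratios of 1 gene between libraries also shifted when the lengths were changed. With merged exon lengths the median log2 ratio of well-detected genes went from 0.06 to 0.02 in DP against DN. TPM per merged exon length were computed from the reads. The recovery was tested on simulated data.

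Each ratio is log2((TPM + 1)/(TPM + 1)). Genes were called at 2-fold or more where the higher library had at least 5 TPM. Fold changes given with an interval are ratios of TPM without a pseudocount. Level intervals are exact Poisson and ratio intervals exact binomial, at 95%, and 3 reads served as the limit of a count of 0. PCR copies count as reads, so intervals and limits cover counting error only. No test across samples was possible. Named genes were the 9 members, the list genes 2-fold apart or highest in their list, overlapping genes, neighbours of Fas, the 5 genes nearest to it in pattern, and markers; the values of some of these are not reported here. The members and lists were chosen with earlier results of these data known. Alternatives were other pseudocounts, level and fold limits, 4 scalings of the libraries, and TPM per merged exon length, the last chosen after seeing the data. Python 3.11.15, pandas 2.3.3 and SciPy 1.17.1 were used.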

Additional observations from a re-analysis of the deposited data

How the results depend on the processing

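Fas kept its direction against DN under every setting tried, with log2 ratios of 1.76 to 3.51 for DP and 1.58 to 3.28 for PDGFRβ-S. The lowest values, 1.76 and 1.58, came with a pseudocount of 5 TPM, which shrinks ratios of low genes by construction. For DP against PDGFRβ-S the Fas ratio ran from -0.17 with quantile normalization to 0.24.

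The count of members at least 2-fold apart was 4 for DP against DN and went to 5 at a 1.5-fold limit, to 3 under 6 alternatives and to 1 at a 4-fold limit (Fas). One of the 6 was a pseudocount of 5 TPM, where Bcl2 was at -0.93 and no longer counted. In the other 5, Bax fell below the 2-fold limit for DP against DN, that is under all 4 scalings and with TPM per merged exon length. For PDGFRβ-S against DN the count was 1 and went to 2 at a 1.5-fold limit, where Bcl2 joined Fas. For DP against PDGFRβ-S it was 1 and went to 0 with a pseudocount of 5 TPM or a 4-fold limit, to 2 with rescaling to nuclear protein-coding genes or without the 20 highest genes (Bcl2 joined Fadd) and with TPM per merged exon length (Bcl2l1 joined), to 3 with no level limit and to 4 at a 1.5-fold limit.

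Of 168 values of the other members under alternatives, 32 moved beyond their counting interval and 8 changed sign, none of them a 2-fold call. No paired analysis was possible because each population has 1 library. Depth limits Bbc3 and Pmaip1 most, and nothing here measures variation between embryos or sorts.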
